A study of Mus musculus with 12 samples.

Results

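The genes of glycolysis, of the pentose phosphate pathway and of the step that leads pyruvate into the mitochondrion were followed in peritoneal exudate cells, the mixed leukocytes and shed lining cells washed from the abdominal cavity of mice. A list of 37 gene symbols was matched to the gene names in the array files, over all probes that were not controls. Probes were found for 36 of them, out of 27674 gene names on the arrays, through 65 probes. Gapdh was the 1 symbol with no probe of that name.

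The study set the response to interferon beta (IFN-β) in mice lacking Ifnar2, which encodes a subunit of the receptor for type I interferons, beside that in wild-type mice. Ifnar2-/- mice received IFN-β (3 arrays) or phosphate-buffered saline, PBS (3 arrays), and wild-type mice received IFN-β (3 arrays) or PBS (3 arrays), each array from a different mouse. All mice were female, 8 weeks old and of the strain given as 129S2/SvPas*BALB/c, and their cells were flushed out with cold PBS 3 hours after injection into the peritoneal cavity. The IFN-β is given as 10000 IU/ml with no volume, and how the Ifnar2 deletion was made is not stated by the labels.

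Glycolysis splits glucose into pyruvate in the cytosol. Hexokinase, phosphofructokinase and pyruvate kinase are its main control points, and the PFKFB enzymes set the level of the sugar bisphosphate that activates phosphofructokinase. Pyruvate can be reduced to lactate and exported, or oxidised by the pyruvate dehydrogenase complex, which the pyruvate dehydrogenase kinases (PDKs) switch off. The pentose phosphate pathway branches off after hexokinase and yields NADPH and ribose phosphate, and macrophages activated by microbial products or cytokines are known for high glycolytic flux.

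Single-colour Agilent arrays were used, and each carried 43379 spots that were not controls. A level below is the log2 processed signal of a gene's probe minus the 75th percentile of that array, and the levels of 3 arrays stand in the order of their replicate numbers. Genes were tested with limma over all 18277 genes that passed a filter on dim probes, and a gene was called at a Benjamini-Hochberg adjusted p under 0.05. All 36 members passed that filter, and the probe that represented each of them was well above background on all 12 arrays. Different genes are never compared by level here, since probes differ in brightness.

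The arrays lay on 3 slides, and slide 3, which held Ifnar2-/- arrays 2 and 3 of both treatments, stood apart. Of its spots 59.4% to 62.5% were well above background, against 65.2% to 71.6% on the other slides. The targeted gene had 2 kept probes that went opposite ways. Probe A_52_P190405 of Ifnar2 had levels of 2.95, 2.74 and 2.69 in Ifnar2-/- mice after PBS, against 4.42, 4.87 and 4.62 in wild-type mice after PBS, a difference of -1.85 (limma adjusted p = 5.47e-05). Probe A_51_P338924 of Ifnar2 had 2.49, 2.69 and 2.60 in Ifnar2-/- mice after PBS, against 1.56, 1.67 and 1.68 in wild-type mice after PBS, a difference of 0.96 (limma adjusted p = 0.0149). No label says which of these probes lies in the deleted part, so the pair checks the labels only in so far as both probes separated the genotypes. Of 12 listed markers of large peritoneal macrophages 11, among them Adgre1, Csf1r, Gata6 and Timd4, were measured, all well above background on all 12 arrays. The same held for all listed markers of B cells, of T and NK cells and of mast cells. Detection alone thus does not tell which cells prevailed.

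The 6 members that rose at least 2-fold in wild-type mice and whose response differed between the genotypes are shown here by the 250 bases before their RefSeq transcription starts (assembly GRCm38.p6), because they are the members on which both comparisons turn. The bases run 5′ to 3′ on the gene's strand, and capitals mark the core letters ACGTG or GCGTG of hypoxia-inducible factor sites on either strand, so CACGT and CACGC stand for sites on the other strand. Pfkfb3 has 2 listed starts. All 6 genes are on the minus strand.
Slc2a6, chr2:27027999-27028248: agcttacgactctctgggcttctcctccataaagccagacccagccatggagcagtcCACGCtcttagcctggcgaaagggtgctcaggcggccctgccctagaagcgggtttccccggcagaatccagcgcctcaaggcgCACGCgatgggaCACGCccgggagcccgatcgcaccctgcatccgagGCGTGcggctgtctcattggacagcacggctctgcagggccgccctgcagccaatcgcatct
Hk2, chr6:82774455-82774704: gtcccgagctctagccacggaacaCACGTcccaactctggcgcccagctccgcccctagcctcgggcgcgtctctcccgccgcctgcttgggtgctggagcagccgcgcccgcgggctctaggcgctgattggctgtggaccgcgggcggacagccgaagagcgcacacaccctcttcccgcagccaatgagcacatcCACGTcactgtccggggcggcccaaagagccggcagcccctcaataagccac
Hk3, chr13:55021386-55021635: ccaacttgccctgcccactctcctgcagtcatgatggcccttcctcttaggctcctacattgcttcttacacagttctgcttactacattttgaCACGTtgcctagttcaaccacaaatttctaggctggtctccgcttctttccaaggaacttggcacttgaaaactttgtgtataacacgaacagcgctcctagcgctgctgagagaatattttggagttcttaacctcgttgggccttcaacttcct
Pfkp, chr13:6648772-6649021: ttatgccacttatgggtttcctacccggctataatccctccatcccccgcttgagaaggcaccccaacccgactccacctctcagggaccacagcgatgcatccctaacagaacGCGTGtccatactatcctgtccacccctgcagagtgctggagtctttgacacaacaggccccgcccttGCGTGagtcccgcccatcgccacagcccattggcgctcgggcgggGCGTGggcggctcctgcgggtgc
Pfkfb3, chr2:11502091-11502340: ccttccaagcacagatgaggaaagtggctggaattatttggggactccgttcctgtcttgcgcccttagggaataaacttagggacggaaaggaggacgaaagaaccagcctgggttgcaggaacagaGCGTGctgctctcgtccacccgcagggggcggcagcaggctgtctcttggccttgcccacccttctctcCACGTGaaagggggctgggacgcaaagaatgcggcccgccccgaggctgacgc
Pfkfb3, chr2:11553930-11554179: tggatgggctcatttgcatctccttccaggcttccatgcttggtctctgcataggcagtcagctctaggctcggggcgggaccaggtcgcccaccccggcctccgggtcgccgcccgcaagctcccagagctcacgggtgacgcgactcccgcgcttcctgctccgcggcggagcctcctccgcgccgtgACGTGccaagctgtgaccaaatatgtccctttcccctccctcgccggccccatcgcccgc
Pdk3, chrX:93832151-93832400: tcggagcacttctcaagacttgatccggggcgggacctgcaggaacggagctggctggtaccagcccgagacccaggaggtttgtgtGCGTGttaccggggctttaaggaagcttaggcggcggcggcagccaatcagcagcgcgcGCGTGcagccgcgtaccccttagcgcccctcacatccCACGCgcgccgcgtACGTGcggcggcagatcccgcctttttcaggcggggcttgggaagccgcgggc

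Each of these 7 windows held a core match, from 1 in Hk3 and in the second Pfkfb3 window to 4 in Slc2a6 and 4 in Pdk3. Windows were found for 36 of the 37 symbols, 56 windows in all; Slc2a3 was not matched. Of the 56 windows 76.8% held ACGTG or GCGTG on either strand, against 38.6% of all 32851 windows of the same length. The letters contain CG, and the members' windows were richer in G and C (58.6%) than all windows (53.2%). The E-box CACGTG, whose matches all overlap ACGTG, stood in 12.5% of the members' windows and 6.02% of all windows. The interferon-stimulated response element, searched as its core pattern on both strands, stood in 0 of the 56 windows, against 2.98% of all windows, and the STAT letters TTCNNNGAA, on both strands, in 3.57%, against 7.02% of all windows. These matches describe letters in a short window and show no binding.

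In wild-type mice IFN-β raised the hexokinases, Slc2a6, Pfkp, Pfkfb3, Pdk3 and Hif1a and lowered Pdk4, Pdk2, Pdk1, Pfkfb2, Pfkfb4, Pfkm and Eno2, while most enzymes between aldolase and pyruvate kinase and most of the pentose phosphate enzymes were not called. Of the 36 members 10 rose, a share of 27.8% beside 17.6 percent of all genes tested, and 8 fell, a share of 22.2% beside 21.8 percent of all genes tested. The share that fell was near that of all genes. The median log2 fold change was 0.04 over the members and -0.04 over all genes. Of these, 7 changes upward and 5 downward were at least 2-fold. The sign of the members' median depended on the scaling. Without scaling between arrays 8 members rose and 10 fell, with a median of -0.12 over the members and -0.21 over all genes. With quantile normalization 8 rose and 8 fell, with a median of -0.20 over the members and -0.11 over all genes. The shares of all genes called in these settings are not given here. The counts thus do not show whether the members changed more than other genes.

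**Figure D1:**
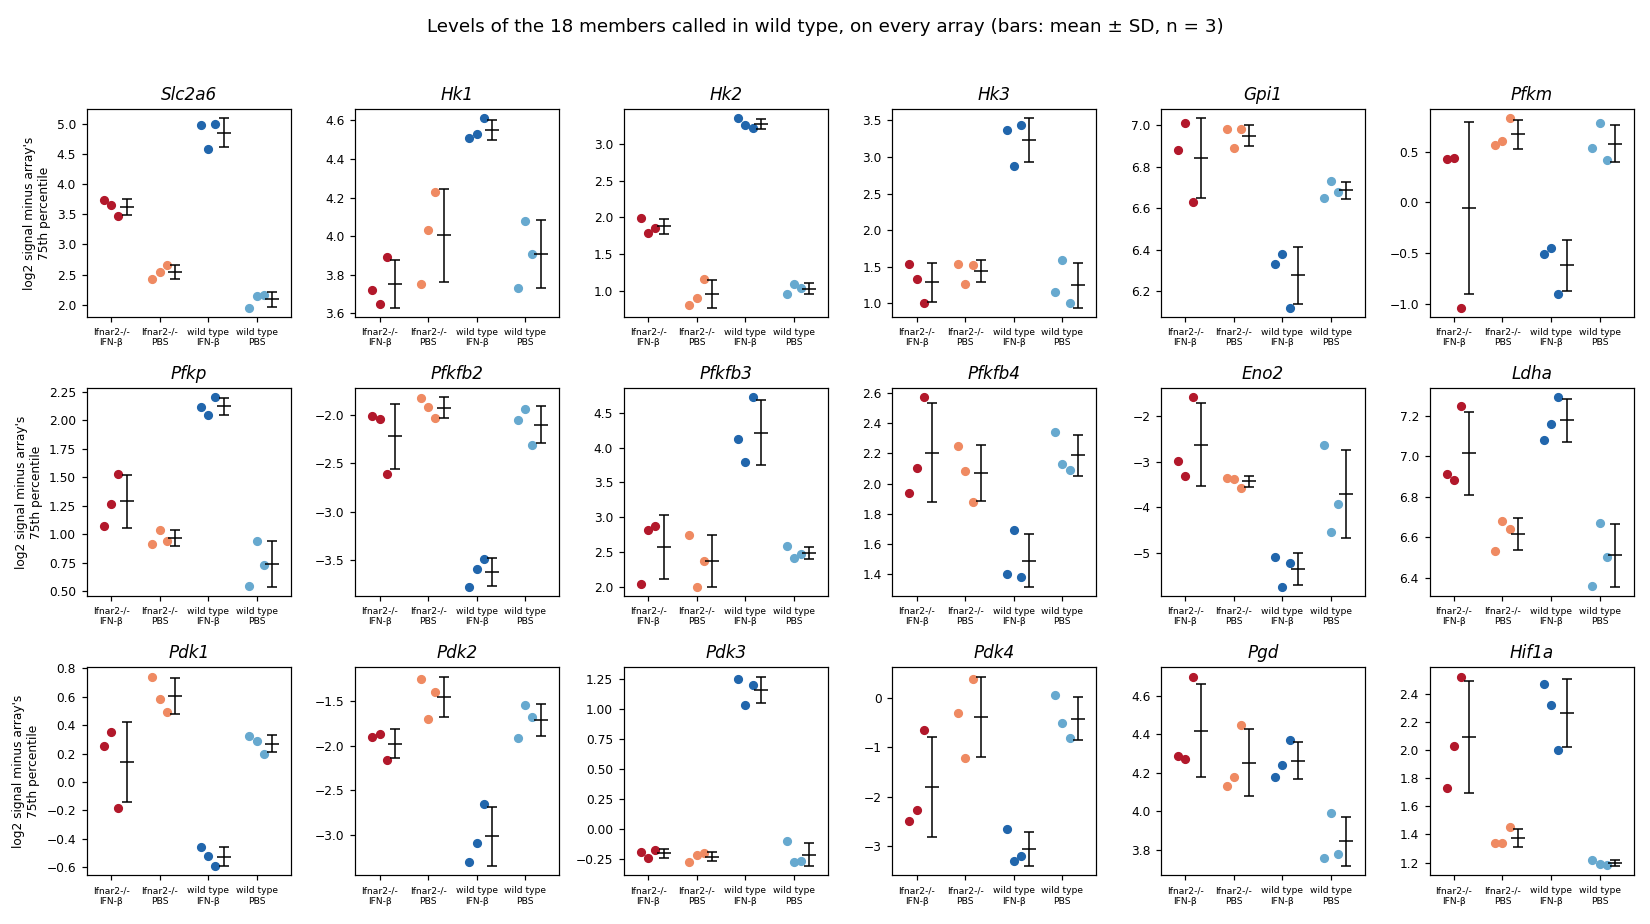
Level (log2 signal minus the array's 75th percentile, y axis) of each of the 18 members called in wild type, on every array, with 1 panel per gene and its own y scale. Points are arrays, and the bar beside them is the mean ± SD of 3 arrays. In the Slc2a6 and Hk2 panels the Ifnar2-/- IFN-β arrays lie between the wild-type IFN-β arrays and both PBS groups; in the Pdk3 panel they lie with the PBS arrays.

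Among the transporters, only the change of Slc2a6 was called. Slc2a6, a hexose transporter also named GLUT6, had levels of 4.99, 4.58 and 5.0 in wild-type mice after IFN-β, against 1.95, 2.15 and 2.16 in wild-type mice after PBS. The groups did not overlap, and the log2 fold change was 2.77 ± 0.14 (SE), a 6.81-fold rise (limma adjusted p = 2.19e-07). It was the largest rise among the members in this comparison. Slc2a1, the widely expressed glucose transporter GLUT1, had a log2 fold change of 0.22 (95% interval -0.52 to 0.96). Slc2a3, the high-affinity transporter GLUT3, had -0.51 (-1.15 to 0.13). The lactate transporter Slc16a3 (MCT4) had -0.32 (-1.41 to 0.77), and none of these passed the test. Slc16a1 (MCT1), which carries lactate and pyruvate, had 0.60 (-0.03 to 1.23, limma adjusted p = 0.121), and was called only without Ifnar2-/- IFN-β replicate 3 (0.0202).

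All 3 hexokinases on the list rose; these enzymes trap glucose in the cell by phosphorylation. Hk2, the inducible hexokinase, had levels of 3.35, 3.26 and 3.22 in wild-type mice after IFN-β, against 0.95, 1.09 and 1.04 in wild-type mice after PBS. The groups lay far apart relative to the spread within them, with a log2 fold change of 2.25 ± 0.12 (SE), or 4.76-fold (limma adjusted p = 2.44e-07). Hk3, the hexokinase found mainly in myeloid cells, had levels of 3.37, 2.88 and 3.43 in wild-type mice after IFN-β, against 1.15, 1.59 and 1.00 in wild-type mice after PBS. Its log2 fold change was 1.98 ± 0.21 (limma adjusted p = 3.79e-05), with no overlap. Hk1, the hexokinase of most tissues, had 4.51, 4.53 and 4.61 in wild-type mice after IFN-β, against 3.73, 4.08 and 3.91 in wild-type mice after PBS. The difference was smaller, 0.65 ± 0.14 (limma adjusted p = 0.00456), and 4 of its 5 kept probes were called higher, by 0.63 to 0.98. The call on Hk1 was lost with quantile normalization (0.32), with no scaling (0.48) and with the slide as a fixed block (0.61). Gpi1, the isomerase that follows hexokinase, fell by 0.40 ± 0.12 (limma adjusted p = 0.0222), with levels of 6.33, 6.38 and 6.12 after IFN-β, against 6.65, 6.73 and 6.68 after PBS in wild type. Its other probe had 0.16 and was not called, the mean of both probes gave -0.12, and the call was lost without wild-type PBS replicate 2 (-0.38), wild-type PBS replicate 3 (-0.41) or wild-type IFN-β replicate 3 (-0.32).

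The 3 phosphofructokinase subunits, named for platelet, muscle and liver, each gave a different result. Pfkp, the platelet type, had levels of 2.12, 2.05 and 2.20 in wild-type mice after IFN-β, against 0.54, 0.94 and 0.73 in wild-type mice after PBS. Its log2 fold change was 1.39 ± 0.14 (SE, limma adjusted p = 3.27e-05). Pfkm, the muscle type, had -0.51, -0.45 and -0.91 in wild-type mice after IFN-β, against 0.54, 0.78 and 0.42 in wild-type mice after PBS. Pfkm thus moved the other way, by -1.21 ± 0.34 (limma adjusted p = 0.0163); the call was lost without wild-type PBS replicate 2 (-1.11) or wild-type IFN-β replicate 3 (-1.06). Pfkl, the liver type, had 0.10 (95% interval -0.35 to 0.54) and was not called. The Pfkp probe that gave 1.39 is printed, with the coordinates of the files (build mm7 per the file headers, minus strand), because Pfkp has 3 probes of unlike response; the others gave 1.26, which was called, and 0.34, which was not. Its coordinates span 2155 bases and the probe has 60, so the printed bases are not the whole interval. Whether a probe lies in an exon, an intron or a UTR was not looked up here, since no annotation of that build was used.
Pfkp probe A_51_P378856, chr13:6475782-6477936: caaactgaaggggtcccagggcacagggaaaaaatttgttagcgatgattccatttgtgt

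The PFKFB enzymes, which make and remove the activator of phosphofructokinase, also split. Pfkfb3, whose kinase activity far exceeds its phosphatase activity, had levels of 4.13, 3.80 and 4.72 in wild-type mice after IFN-β, against 2.58, 2.41 and 2.47 in wild-type mice after PBS. The groups did not overlap, and the log2 fold change was 1.73 ± 0.28 (SE, limma adjusted p = 0.000784). Pfkfb2, the heart type, had -3.78, -3.60 and -3.49 in wild-type mice after IFN-β, against -2.05, -1.94 and -2.31 in wild-type mice after PBS. That was a fall, with a log2 fold change of -1.53 ± 0.17 (limma adjusted p = 6.65e-05), and 3 of its 4 probes were called lower, the fourth giving -0.55. Pfkfb4, the testis type, had 1.40, 1.69 and 1.38 in wild-type mice after IFN-β, against 2.34, 2.13 and 2.09 in wild-type mice after PBS, a change of -0.70 ± 0.18 (limma adjusted p = 0.00976). Pfkfb1, the liver type, had -0.35 (95% interval -0.72 to 0.03) and was called only without wild-type PBS replicate 3 (-0.51) and with no scaling (-0.51). All 3 Pfkfb3 probes were called higher, by 1.73 to 1.99. The 2 probes beside the one used are printed (mm7, minus strand) because they lie at separate places and gave 1.86 and 1.99. Their coordinates span 2263 and 1414 bases, against 60 bases in each probe.
Pfkfb3 probe A_52_P138126, chr2:11429504-11431766: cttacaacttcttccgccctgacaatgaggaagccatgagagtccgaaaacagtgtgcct
Pfkfb3 probe A_52_P362917, chr2:11421720-11423133: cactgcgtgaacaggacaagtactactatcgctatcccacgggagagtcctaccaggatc

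**Figure D2:**
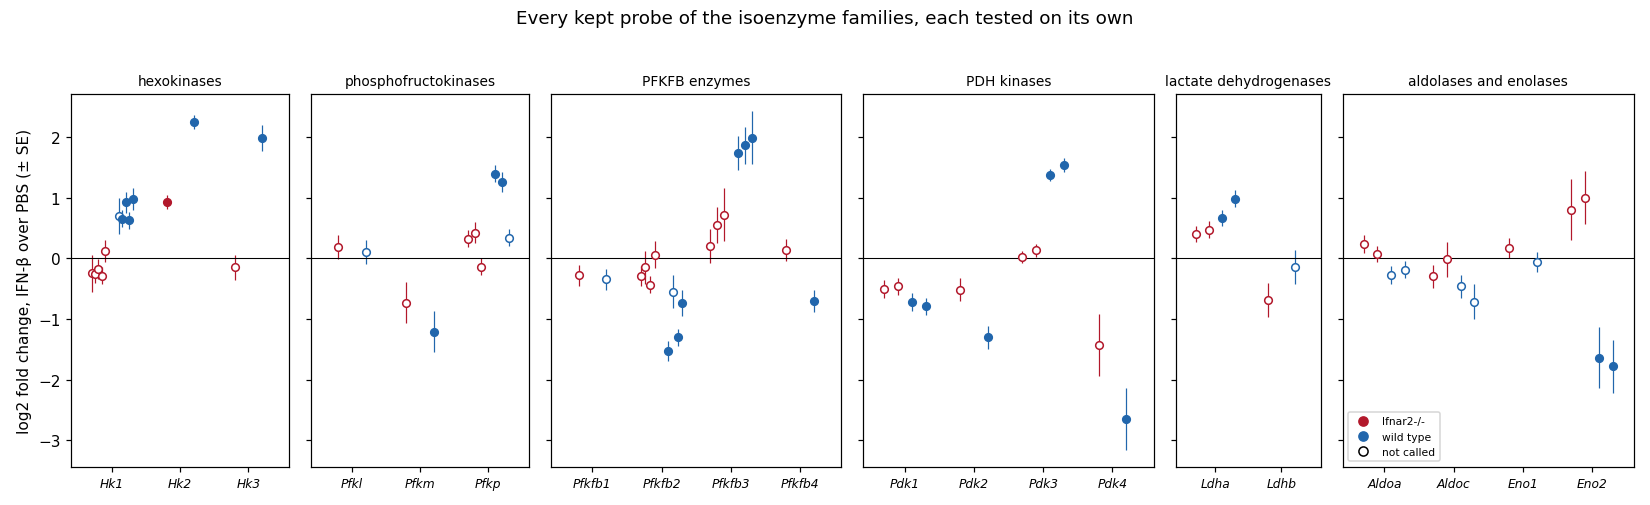
Log2 fold change of IFN-β over PBS (y axis, ± SE of the limma fit over probes) for every kept probe of the isoenzyme families, Ifnar2-/- in red and wild type in blue, filled where the adjusted p was under 0.05. In wild type the probes of Hk2, Hk3, Pfkfb3 and Pdk3 lie above 0 and those of Pfkfb2, Pdk1, Pdk2, Pdk4 and Eno2 below it.

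Of the 8 measured members from aldolase to pyruvate kinase, the change of only 1 was called. Eno2, the enolase of neurons, had levels of -5.09, -5.74 and -5.22 in wild-type mice after IFN-β, against -2.65, -4.54 and -3.92 in wild-type mice after PBS. The PBS arrays were far apart, and the log2 fold change of -1.64 ± 0.50 (limma adjusted p = 0.0235) lost its call without wild-type PBS replicate 1 (-1.12), without wild-type IFN-β replicate 2 (-1.45) and with another background correction, normexp (-0.55). The other Eno2 probe gave -1.78 and was called lower when each probe was tested on its own (limma adjusted p = 0.00874). Eno2 is dim: on the wild-type IFN-β arrays the lowest levels well above background were -6.15, -6.16 and -6.07. Pgk1, which makes the first ATP that glycolysis gains, had 4.68, 4.66 and 4.35 in wild-type mice after IFN-β, against 3.98, 4.11 and 3.91 in wild-type mice after PBS. The groups did not overlap, but the difference of 0.56 ± 0.21 missed the threshold (limma adjusted p = 0.0554) and passed it in 5 of 24 other settings, among them without Ifnar2-/- IFN-β replicate 3 (0.00294) or replicate 2 (0.0431). The other 6, Aldoa, Aldoc, Tpi1, Pgam1, Eno1 and Pkm2, had log2 fold changes from -0.46 (Aldoc) to 0.27 (Pkm2). Aldoc, the brain aldolase, passed the threshold only in 3 settings, among them without wild-type IFN-β replicate 2 (-0.60).

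Ldha, the subunit that favours lactate production, had levels of 7.08, 7.16 and 7.29 in wild-type mice after IFN-β, against 6.36, 6.67 and 6.50 in wild-type mice after PBS. It rose by 0.67 ± 0.13 (SE, limma adjusted p = 0.00252), or 1.59-fold, with no overlap. Ldhb, the subunit of oxidative tissues, had -0.15 (95% interval -0.78 to 0.48) and was not called. Both Ldha probes were called higher, by 0.67 and 0.98. The second is printed (mm7, plus strand) because it gave the larger change. The coordinates of that probe span 930 bases, against its 60.
Ldha probe A_51_P364146, chr7:43030257-43031186: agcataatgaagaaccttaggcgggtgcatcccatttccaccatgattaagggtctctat

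The PDKs, which phosphorylate and inactivate pyruvate dehydrogenase, moved apart: Pdk3 rose, and Pdk1, Pdk2 and Pdk4 fell. Pdk3 had levels of 1.25, 1.04 and 1.2 in wild-type mice after IFN-β, against -0.10, -0.27 and -0.26 in wild-type mice after PBS. Its log2 fold change was 1.37 ± 0.10 (SE, limma adjusted p = 2.74e-06), and its other probe gave 1.54. Pdk4, the kinase known to rise in fasting, had -2.66, -3.31 and -3.21 in wild-type mice after IFN-β, against 0.06, -0.51 and -0.80 in wild-type mice after PBS. This was the largest fall among the members, with a log2 fold change of -2.65 ± 0.51, a 6.26-fold change (limma adjusted p = 0.00217). Pdk2 had -3.30, -3.09 and -2.65 in wild-type mice after IFN-β, against -1.91, -1.55 and -1.68 in wild-type mice after PBS, a change of -1.30 ± 0.19 (limma adjusted p = 0.000337). Pdk1, a known target of hypoxia-inducible factor, had -0.46, -0.52 and -0.59 in wild-type mice after IFN-β, against 0.32, 0.29 and 0.20 in wild-type mice after PBS, a change of -0.79 ± 0.14 (limma adjusted p = 0.00127). No group of these 4 kinases overlapped with its PBS group in wild type. Pdha1, the catalytic subunit that they phosphorylate, had -0.01 (95% interval -0.26 to 0.24).

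In the pentose phosphate pathway the change of 1 of 4 enzymes was called. Pgd, which makes NADPH in the oxidative arm, had levels of 4.18, 4.24 and 4.37 in wild-type mice after IFN-β, against 3.76, 3.99 and 3.78 in wild-type mice after PBS. The groups did not overlap, and the log2 fold change was 0.43 ± 0.15 (SE, limma adjusted p = 0.0395), the weakest call among the members. It was lost in 10 of 24 other settings, 6 of which left out 1 array: wild-type PBS replicate 1 (0.38) or 3 (0.39), wild-type IFN-β replicate 1 (0.47), 2 (0.44) or 3 (0.37), or Ifnar2-/- PBS replicate 2 (0.43). The other Pgd probe gave 0.73 and was called higher when each probe was tested on its own (limma adjusted p = 0.00449). G6pdx, the entry enzyme, had 0.33 (95% interval -0.02 to 0.68). Tkt had 0.22 (-0.08 to 0.52) and Taldo1 -0.08 (-0.40 to 0.24); both belong to the non-oxidative arm, and neither was called.

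Hif1a encodes the oxygen-regulated subunit of hypoxia-inducible factor HIF-1, which activates many glycolysis genes. Its levels were 2.47, 2.32 and 2.00 in wild-type mice after IFN-β, against 1.22, 1.19 and 1.18 in wild-type mice after PBS. The log2 fold change was 1.06 ± 0.19 (SE, limma adjusted p = 0.00119), with no overlap. Its mRNA only was measured.

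Some slides allow a comparison within a slide: slide 1 held the 3 wild-type PBS arrays and wild-type IFN-β replicate 1. On that slide alone the log2 differences were 2.90 for Slc2a6, 2.32 for Hk2, 2.13 for Hk3, 1.38 for Pfkp, 1.64 for Pfkfb3, 1.46 for Pdk3 and 1.27 for Hif1a. Downward differences on that slide were -2.25 for Pdk4, -1.68 for Pfkfb2 and -1.59 for Pdk2. A fit with the slide as a fixed block gives these same wild-type differences. The other wild-type IFN-β arrays shared no slide with a wild-type PBS array. The wild-type estimates of that fit thus rest on 1 IFN-β array and are no second check. The share of all genes called in that fit is not given here. With the slide as a fixed block, 7 members rose and 3 fell, and the calls on Slc2a6, Hk2, Hk3, Pfkp, Pfkfb2, Pfkfb3, Pdk1, Pdk2, Pdk3 and Hif1a were kept. That block ended 8 calls: Pdk4 (-2.25, adjusted p = 0.0609), Ldha (0.57, 0.0608), Hk1 (0.61, 0.0569), Pfkfb4 (-0.78, 0.068), Pfkm (-1.09, 0.158), Gpi1 (-0.35, 0.212), Eno2 (-1.39, 0.23) and Pgd (0.34, 0.273), the values being log2 fold changes in limma with the block.

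Cell type markers were read in the same comparison, in which 17.6 percent of all genes tested rose and 21.8 percent fell. The shares of neutrophil markers (8.33% higher, 8.33% lower) and large peritoneal macrophage markers (18.2% higher, 9.09% lower) were near or below these. Of the monocyte markers 71.4% were called higher. Lower calls were 50% of T and NK cell, 50% of mesothelial, 37.5% of mast cell and 33.3% of B cell markers. The summed linear level of 7 monocyte markers was 255 to 297 in wild-type mice after IFN-β and 80.7 to 115 in wild-type mice after PBS, with 5 of the 7 called higher. The summed level of 10 T and NK cell markers was 4.57 to 4.86 in wild-type mice after IFN-β and 6.92 to 8.07 in wild-type mice after PBS, with 5 called lower. Neutrophil markers summed to 18 to 27.7 in wild-type mice after IFN-β, with 1 of 12 called higher and 1 lower. After PBS they summed to 114 on wild-type replicate 1, against 15.9 and 10.6 on replicates 2 and 3. Large peritoneal macrophage markers summed to 822 to 892 in wild-type mice after IFN-β and 718 to 941 in wild-type mice after PBS, with 2 of 11 called higher and 1 lower. Of the mast cell markers 3 of 8 were called lower, with sums of 173 to 199 after IFN-β and 200 to 281 after PBS. Of the B cell markers 3 of 9 were called lower, with sums of 430 to 503 after IFN-β and 432 to 546 after PBS, and of the mesothelial markers 3 of 6, with sums of 0.583 to 0.719 after IFN-β and 1.08 to 1.23 after PBS. Eosinophil markers had 0 calls, with sums of 2.41 to 6.55 after IFN-β and 2.06 to 3.63 after PBS. Among them Epx was well above background on 0 arrays, Prg2 on 8, and Siglecf and Ccr3 on 12. Erythroid markers had 0 calls over 4 tested genes, at a median log2 fold change of 2.18. Their sums varied widely, from 37 to 435 after IFN-β and 4.44 to 48.4 after PBS. The 435 was wild-type IFN-β replicate 3, against 37 and 40.3 on replicates 1 and 2. The part of these marker differences in the members' changes was not tested. In these bulk samples fewer cells of a type and less RNA per cell cannot be told apart.

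**Figure D3:**
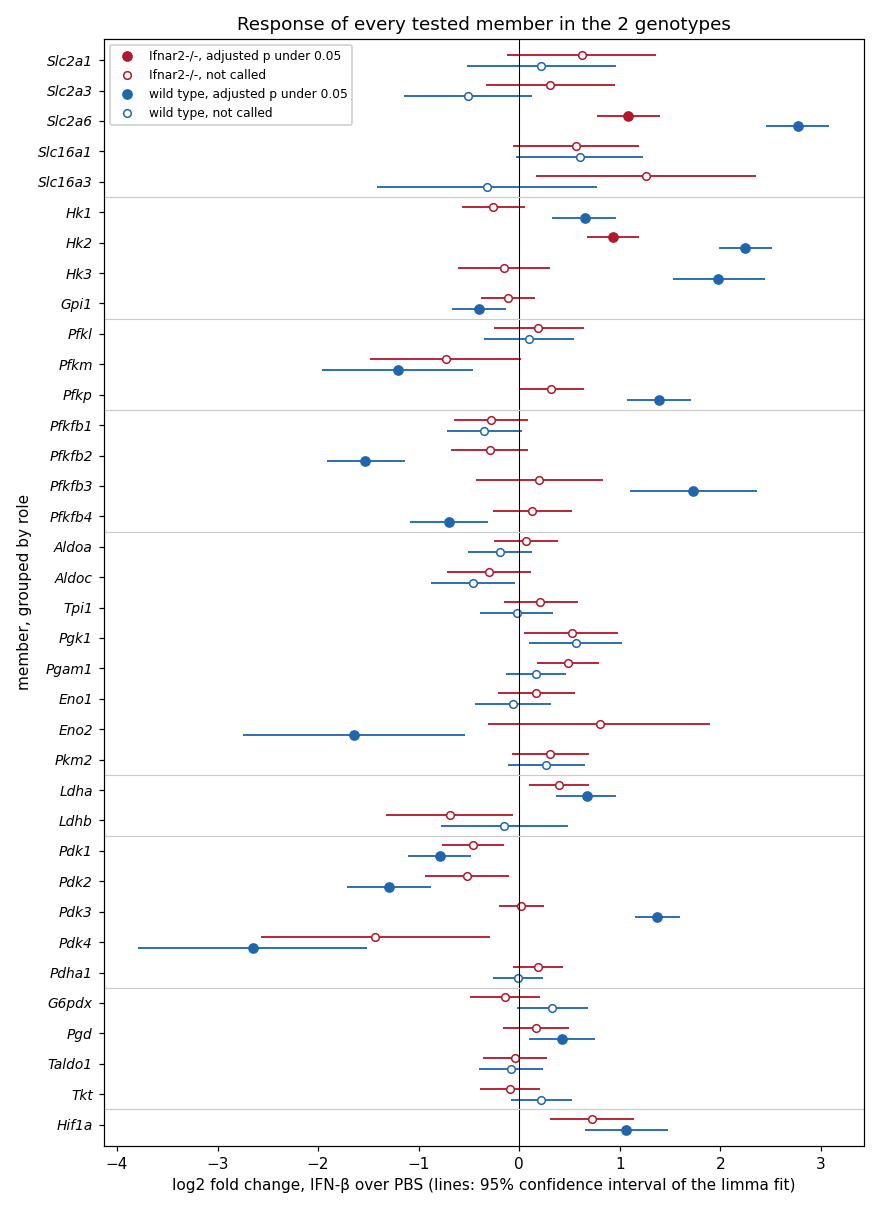
Log2 fold change of IFN-β over PBS (x axis) for each of the 36 measured members (y axis, grouped by role), in Ifnar2-/- above and in wild type below within each pair. Lines are 95% confidence intervals of the limma fit and filled points are calls; in Ifnar2-/- only Slc2a6 and Hk2 are filled.

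In Ifnar2-/- mice the same injection raised Slc2a6 and Hk2, and no other member was called. These 2 of 36 members, a share of 5.56%, compare with 0.925 percent of all genes tested that rose; 0 members fell, beside 0.208 percent of all genes tested. With the replicate number as a block in the limma fit, the same 2 members were called (adjusted p = 0.0232 for Slc2a6 and 0.0225 for Hk2). Over all genes 109 rose, against 169 without the block. That fit gave the wild-type arrays the same block, so it was not a paired test of the Ifnar2-/- arrays alone. At an unadjusted p under 0.05 there were 12 of the 36 members (33.3%), beside 18.3% of all genes, among them Pgam1, Hif1a, Pdk1, Ldha, Pdk4 and Pdk2. The median log2 fold change was 0.17 over the members and -0.05 over all genes, and without Ifnar2-/- IFN-β replicate 3 it was 0.04 over the members and -0.04 over all genes.

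Slc2a6 had levels of 3.74, 3.65 and 3.48 in Ifnar2-/- mice after IFN-β, against 2.42, 2.54 and 2.66 in Ifnar2-/- mice after PBS. The groups did not overlap, and the log2 fold change was 1.08 ± 0.14 (SE, limma adjusted p = 0.00824), or 2.12-fold. Hk2 had 1.99, 1.78 and 1.86 in Ifnar2-/- mice after IFN-β, against 0.80, 0.90 and 1.16 in Ifnar2-/- mice after PBS. It too rose without overlap, by 0.93 ± 0.12 (limma adjusted p = 0.00693), or 1.90-fold. Both were higher on slide 2, where the differences were 1.32 for Slc2a6 and 1.19 for Hk2 with 1 array a group, and on slide 3, where they were 0.97 and 0.79 with 2 arrays a group (adjusted p = 0.452 and 0.535 in a limma fit of those 4 arrays). The calls on both were lost when only the Ifnar2-/- arrays entered the fit (adjusted p = 0.0904 for Slc2a6 and 0.159 for Hk2), without Ifnar2-/- PBS replicate 2 (0.0508 for each, at log2 fold changes of 1.08 and 0.90), and without the arrays of slide 3 (0.367 and 0.165).

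Hif1a had levels of 1.73, 2.03 and 2.52 in Ifnar2-/- mice after IFN-β, against 1.34, 1.34 and 1.45 in Ifnar2-/- mice after PBS. All 3 IFN-β arrays were higher than all PBS arrays, but the difference of 0.72 ± 0.19 did not pass (limma adjusted p = 0.0969) except without Ifnar2-/- IFN-β replicate 1 (0.90, adjusted p = 0.0424). Pdk4 had -2.49, -2.27 and -0.64 in Ifnar2-/- mice after IFN-β, against -0.30, -1.22 and 0.40 in Ifnar2-/- mice after PBS. Replicates 1 and 2 lay below every PBS array and replicate 3 did not, and the log2 fold change was -1.43 ± 0.51 (limma adjusted p = 0.19). Ldha had 6.91, 6.88 and 7.25 in Ifnar2-/- mice after IFN-β, against 6.53, 6.68 and 6.64 in Ifnar2-/- mice after PBS, with a difference of 0.40 ± 0.13 that was not called (limma adjusted p = 0.163).

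Ifnar2-/- IFN-β replicate 3 stood apart from the other arrays of its group for many members. It was the array farthest from the mean of the Ifnar2-/- PBS arrays for 27 of the 36 members (75%), and for 56% of the 18273 genes so compared. The lactate exporter Slc16a3 had 2.35, 2.64 and 4.65 in Ifnar2-/- mice after IFN-β, against 1.75, 1.93 and 2.20 in Ifnar2-/- mice after PBS. Slc2a1 had 2.08, 2.56 and 3.66 after IFN-β, against 1.99, 2.43 and 2.01 after PBS in the same genotype. The third array was thus the high one in both, and without it the differences were 0.54 for Slc16a3, against 1.26 with it, and 0.17 for Slc2a1, against 0.62 with it; none of these 4 values was called. Eno2 in this array was -1.60, against -2.99 and -3.31 in the other arrays of its group, and Slc16a1 was 1.55, against 0.51 and 0.43. Pfkm was lower there, -1.04 against 0.43 and 0.44, and so was Ldhb, 0.72 against 1.59 and 1.81. The summed level of 12 neutrophil markers was 201 on this array, against 21.7 and 83.1 on the other arrays of its group and 12.6 to 18.1 in Ifnar2-/- mice after PBS. The part of those cells in the members' values on this array was not tested. Monocyte markers summed to 100 to 125 in Ifnar2-/- mice after IFN-β and 110 to 130 in Ifnar2-/- mice after PBS, with 0 of 7 called. Of the 7, 3 (42.9%) had a negative difference of responses, beside 9.10 percent of all genes tested. The rises of Slc2a6 (1.16, adjusted p = 0.00925) and Hk2 (0.94, adjusted p = 0.0127) were called without it too.

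**Figure D4:**
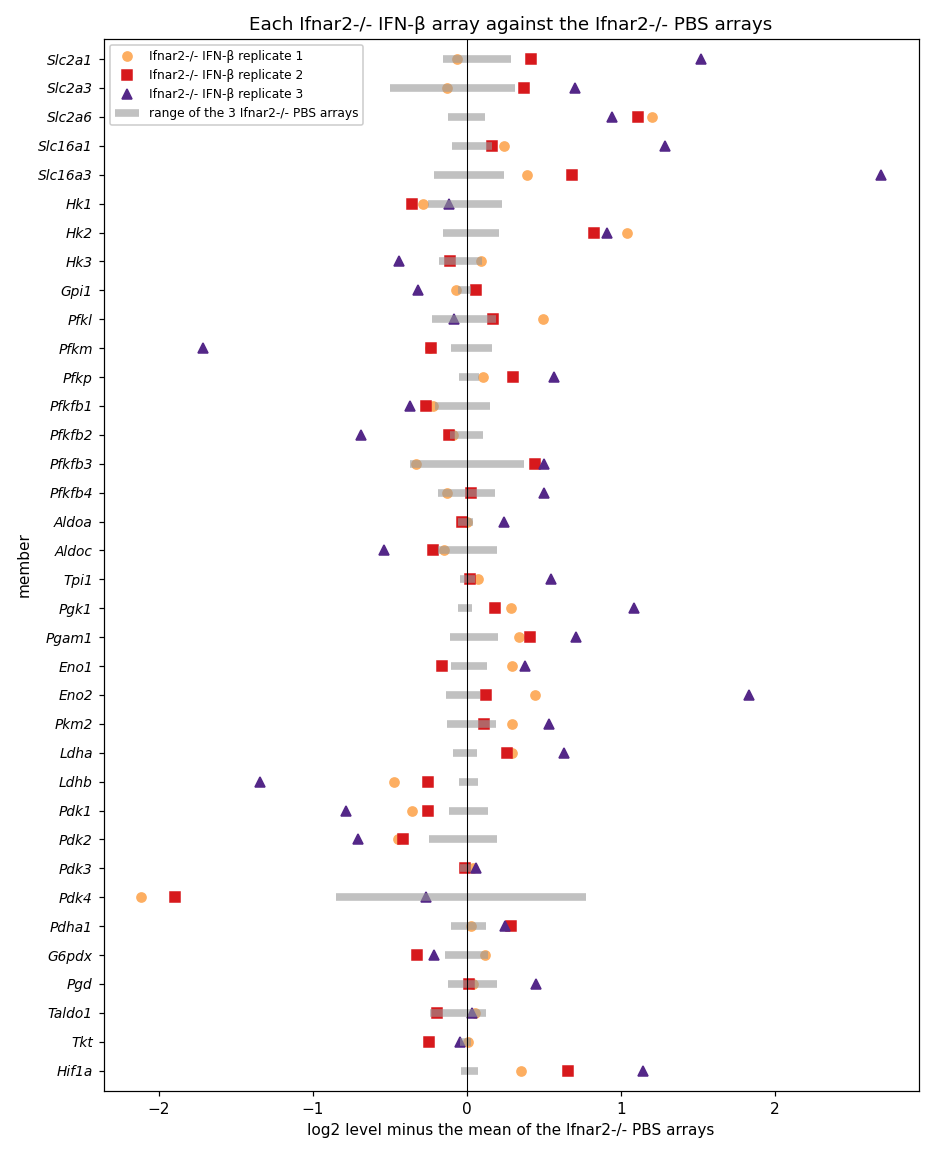
Level of each member on the 3 Ifnar2-/- IFN-β arrays minus the mean of the Ifnar2-/- PBS arrays (x axis, log2), with the range of the PBS arrays as a grey bar. Replicate 3 (triangles) lies away from replicates 1 and 2 for Slc16a3, Slc2a1, Eno2, Pfkm and Ldhb, while all 3 arrays lie to the right of the bar for Slc2a6, Hk2 and Hif1a.

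The response of 10 members differed between the genotypes in the test of the difference itself, taken as the response in Ifnar2-/- minus the response in wild type. The value was negative for 7, a share of 19.4% beside 9.10 percent of all genes tested, and positive for 3, a share of 8.33% beside 8.67 percent of all genes tested. All 7 had risen in wild type and all 3 had fallen there. Of the 10, Slc2a6, Hk2, Hk3, Pdk3 and Pfkfb2 were called in each of 23 other settings. With quantile normalization 5 members were positive and 6 negative, and with no scaling 4 and 5, while the median of all genes moved to 0.31 with no scaling, against 0.03. The shares of all genes called in these settings are not given here, so the counts do not set the members apart.

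Slc2a6 and Hk2 were the pair that rose in both genotypes by unequal amounts. Slc2a6 changed by 1.08 in Ifnar2-/- mice and 2.77 in wild-type mice, a difference of -1.68 ± 0.20 (SE, limma adjusted p = 0.000245). Hk2 changed by 0.93 in Ifnar2-/- mice and 2.25 in wild-type mice, a difference of -1.32 ± 0.17 (limma adjusted p = 0.000355). The levels of both after PBS were not called different between the genotypes.

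Hk3, Hk1, Pdk3, Pfkfb3 and Pfkp rose in wild type and were not called in Ifnar2-/-. Hk3 had levels of 1.53, 1.33 and 1.00 in Ifnar2-/- mice after IFN-β, against 1.54, 1.26 and 1.52 in Ifnar2-/- mice after PBS. Its log2 fold change was -0.15 in Ifnar2-/- mice and 1.98 in wild-type mice, and the difference, -2.14 ± 0.29 (limma adjusted p = 0.000623), was the largest of the 7. Pdk3 had -0.19, -0.24 and -0.17 in Ifnar2-/- mice after IFN-β, against -0.27, -0.21 and -0.20 in Ifnar2-/- mice after PBS. These 6 arrays lay within a narrow span, and the log2 fold change was 0.02 (95% interval -0.20 to 0.25) in Ifnar2-/- mice, against 1.37 in wild-type mice, a difference of -1.35 ± 0.14 (limma adjusted p = 0.000101). Pfkp had 1.07, 1.26 and 1.53 in Ifnar2-/- mice after IFN-β, against 0.91, 1.04 and 0.94 in Ifnar2-/- mice after PBS. Its difference of responses was -1.07 ± 0.20 (limma adjusted p = 0.00443), lost only with no scaling (-0.79, adjusted p = 0.0581). Hk1 had 3.72, 3.65 and 3.89 in Ifnar2-/- mice after IFN-β, against 3.75, 4.03 and 4.23 in Ifnar2-/- mice after PBS. The difference of responses was -0.90 ± 0.20 (limma adjusted p = 0.0112), and it was not called with no scaling, with the slide as a fixed block or without slide 3. Pfkfb3 had 2.04, 2.81 and 2.87 in Ifnar2-/- mice after IFN-β, against 2.74, 2.00 and 2.37 in Ifnar2-/- mice after PBS. Those groups overlapped, and the response within Ifnar2-/- was -0.70 on slide 2 and 0.66 on slide 3. The difference of responses between the genotypes was -1.52 ± 0.40 (limma adjusted p = 0.0247). It was not called in 8 of 23 other settings, among them the slide as a fixed block (-1.44, adjusted p = 0.139), the mean of the probes (-1.37, 0.0723), quantile normalization (-1.24, 0.0569) and no filter on dim probes (-1.52, 0.054). Leaving out wild-type PBS replicate 2 (-1.49) or 3 (-1.52), or Ifnar2-/- PBS replicate 1 (-1.34) or 3 (-1.52), brought the adjusted p of Pfkfb3 to between 0.0514 and 0.0571.

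Pfkfb2, Pfkfb4 and Eno2 fell in wild type and were not called in Ifnar2-/-. Pfkfb2 had levels of -2.01, -2.04 and -2.61 in Ifnar2-/- mice after IFN-β, against -1.82, -1.92 and -2.03 in Ifnar2-/- mice after PBS. Its log2 fold change was -0.29 in Ifnar2-/- mice and -1.53 in wild-type mice, a difference of 1.23 ± 0.25 (limma adjusted p = 0.00589). Pfkfb4 had 1.94, 2.10 and 2.57 in Ifnar2-/- mice after IFN-β, against 2.25, 2.08 and 1.88 in Ifnar2-/- mice after PBS. The difference of responses for Pfkfb4 was 0.83 ± 0.25 (limma adjusted p = 0.0438), and it was not called with the replicate number as a block (0.83, adjusted p = 0.08). It was not called in 13 of 23 other settings in all, 9 of which left out 1 array (0.64 to 0.88, the lowest without Ifnar2-/- IFN-β replicate 3). For Eno2 the difference was 2.44 ± 0.71 (limma adjusted p = 0.0367), not called in 12 of 23 settings, 8 of which left out 1 array (1.91 to 2.57, the lowest without wild-type PBS replicate 1), and at 1.06 with normexp. The other Eno2 probe gave a difference of 2.78, called when each probe was tested on its own (limma adjusted p = 0.0116). The arrays whose loss ended the call on Pfkfb4 were all 3 wild-type PBS arrays, wild-type IFN-β replicates 1 and 3, Ifnar2-/- PBS replicates 2 and 3 and Ifnar2-/- IFN-β replicates 2 and 3. For Eno2 they were wild-type PBS replicates 1 and 3, all 3 wild-type IFN-β arrays and all 3 Ifnar2-/- PBS arrays.

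The response of the other 8 members called in wild type, Hif1a, Ldha, Pgd, Gpi1, Pfkm, Pdk1, Pdk2 and Pdk4, was not shown to differ between the genotypes. For Hif1a the difference was -0.34 (95% interval -0.93 to 0.24), with 0.72 in Ifnar2-/- mice and 1.06 in wild-type mice. For Pdk4 it was 1.22 (-0.39 to 2.83), with -1.43 in Ifnar2-/- mice and -2.65 in wild-type mice, and for Ldha -0.27 (-0.68 to 0.15). Pdk2 came nearest, at 0.78 (0.19 to 1.37, limma adjusted p = 0.0706), and it passed without wild-type IFN-β replicate 3 (0.96, adjusted p = 0.0234). Without Ifnar2-/- IFN-β replicate 3, Pfkm (0.97, adjusted p = 0.0133) and Pdk1 (0.49, adjusted p = 0.0392) passed as well.

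Between the genotypes after PBS, Ifnar2-/- against wild type, 0 of the 36 members were called, beside 4.88 percent of all genes tested, in limma. Without adjustment 6 of the 36 (16.7%) had a p under 0.05, beside 20.2% of all genes, so the share of members was not above that of all genes. The values of the members nearest to the threshold are given as a description. No slide held arrays of both groups, so within this comparison slide and genotype cannot be told apart. The median difference was 0.12 over the members and 0.01 over all genes. Pfkl had levels of 2.30, 2.04 and 2.45 in Ifnar2-/- mice after PBS, against 1.13, 1.79 and 1.61 in wild-type mice after PBS. The groups did not overlap, with a difference of 0.75 ± 0.20 (limma adjusted p = 0.0627), and it was called without Ifnar2-/- IFN-β replicate 1 (adjusted p = 0.049) or 3 (0.044). Ldhb had 2.13, 2.01 and 2.04 in Ifnar2-/- mice after PBS, against 2.96, 3.27 and 2.95 in wild-type mice after PBS. It was lower in all Ifnar2-/- arrays, by -1.0 ± 0.28 (limma adjusted p = 0.0804), and was called without Ifnar2-/- IFN-β replicate 3 (adjusted p = 0.0196). Slc2a6 differed by 0.45 ± 0.14 (limma adjusted p = 0.109) and Tkt by -0.39 ± 0.14 (limma adjusted p = 0.148). Single dim probes of Gpi1 (1.18) and Tkt (-1.37) passed when each probe was tested on its own, with adjusted p of 0.0131 and 0.0307, and the probes that represent both genes did not.

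Other genes of carbon metabolism, in 7 lists, were read in the same fit. Over all genes tested, 17.6 percent rose and 21.8 percent fell in wild-type mice. Of 17 tested genes of gluconeogenesis and glycogen metabolism, 1 rose (5.88%) and 9 fell (52.9%) in wild-type mice (median log2 fold change -0.40, against -0.04 over all genes). Gys1, glycogen synthase, changed by -1.20 ± 0.14 (limma adjusted p = 6.78e-05), Pgm2l1 by -1.94 ± 0.27 (0.000291) and Slc37a2, a glucose phosphate transporter, by -1.36 ± 0.21 (0.000557). The response of Gys1 and Slc37a2 differed between the genotypes, by 1.12 and 1.26, and that of Gyg, glycogenin, by -1.28. Of the 22 genes of the list of HIF-1 partners, regulators and other targets, 2 rose (9.09%) and 7 fell (31.8%) in wild-type mice (median -0.24). Egln3 and Egln1, the prolyl hydroxylases that mark HIF for destruction, changed by -2.63 ± 0.22 (limma adjusted p = 6.95e-06) and -1.20 ± 0.13 (4.92e-05), and Kdm3a, a histone demethylase, by -0.63 ± 0.12 (0.00163). In that list 5 genes (22.7%) had a positive difference of responses, among them Egln3 (2.98) and Bhlhe40 (1.37), and 0 a negative one. Over all genes tested the shares were 8.67 percent positive and 9.10 percent negative.

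Of 14 other genes of glycolysis and glucose entry, 3 rose (21.4%) and 1 fell (7.14%) in wild-type mice, beside 17.6 percent and 21.8 percent of all genes tested. Minpp1, a phosphatase that also acts on a glycolytic bisphosphate, rose by 1.51 ± 0.14 (limma adjusted p = 1.89e-05), and Slc2a8, another hexose transporter, changed by -1.35 ± 0.35 (0.0111). Of 10 other pentose phosphate genes 3 rose (30%) and 2 fell (20%). Tktl1 changed by 1.97 and Rpe by 0.76 among the first, and H6pd by -1.24 and Shpk by -1.18 among the second. Of 9 genes of the pyruvate dehydrogenase complex and pyruvate entry 2 rose (22.2%), Dld by 0.52 and the phosphatase Pdp1 by 0.42. In that list 1 fell (11.1%), Pdpr by -0.73. Of 20 enzymes of the TCA cycle list 1 rose (5%), Idh3a by 0.70, and 2 fell (10%), Idh1 by -1.68 and Idh3g by -0.43. Both shares lay below those of all genes. Of 14 regulators outside the members 1 rose (7.14%), the sugar-sensing factor Mlxipl by 0.86, and 3 fell (21.4%). Among these 3 were Prkag2, a subunit of AMP kinase, by -1.97 and Txnip, which restrains glucose uptake, by -0.58. The share of regulators that fell was near that of all genes. After PBS, Tigar, a phosphatase that turns sugar from glycolysis towards the pentose phosphate pathway, was 1.73 ± 0.21 higher in Ifnar2-/- mice (limma adjusted p = 0.00094), as were Ndrg1 (1.09), Epas1 (1.06) and Mlxipl (0.70). These calls were 1 of 10 other pentose phosphate genes, 2 of 22 genes of the HIF-1 list and 1 of 14 regulators. The other lists had 0 calls, and 4.88 percent of all genes tested were called. Slide and genotype cannot be told apart in this comparison.

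**Figure D5:**
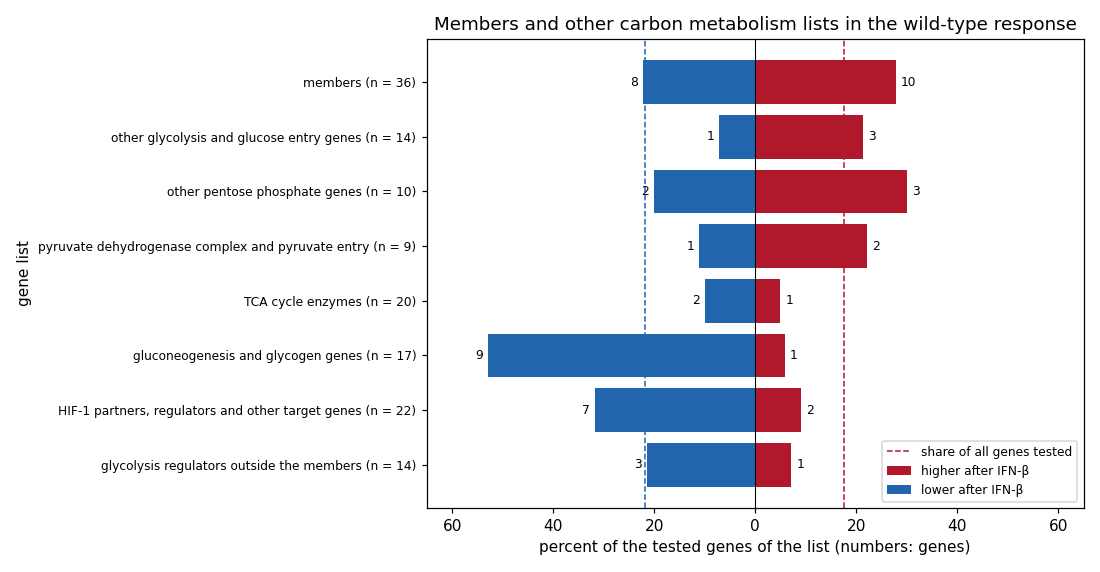
Percent of the tested genes of each list (x axis) called higher (right, red) or lower (left, blue) after IFN-β in wild type, with the number of genes beside each bar and dashed lines at the shares of all 18277 genes. The bars of the members end at 10 genes higher and 8 lower; the gluconeogenesis and glycogen bar has 9 genes on the lower side.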

How the data were processed

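RNA of peritoneal exudate cells from 12 mice was read on single-colour Agilent arrays. Per the file headers, the deposited processed signal is an intensity on a linear scale, background-subtracted within each array by Agilent Feature Extraction 9.5.3.1 and not normalized between arrays. The deposited table of values held these same intensity values (0 of 45018 differed), with medians of 50.7 to 77.6. From these, spots marked as outliers (84 to 167 per array) were left out, spots of a probe were averaged, and log2 values were set relative to each array's 75th percentile (659 to 968). Of 41174 probes 27716 were kept: those flagged as well above background on each array of 1 or more groups, with 6 or more arrays giving a value. A gene was its brightest kept probe. Of the members' 65 probes 64 were kept, and none was saturated; the 1 left out is a dim Hk1 probe. Members were matched by the name in the files, and other genes were named through RefSeq (GRCm38.p6).

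One limma 3.58.1 fit (R 4.3.3, files read with the package data.table, version 1.17.8) held 4 group means of 3 arrays, with 8 residual and 2.38 prior degrees of freedom; tests were two-sided and adjusted by Benjamini-Hochberg over 18277 genes per comparison. It was tested on simulated data. The number of arrays limits the precision. The members, the gene lists and the rule for naming genes (all members, and up to 4 called genes per other list and comparison by adjusted p) were chosen with earlier results of these data known. Alternatives covered the scaling, background correction, dim-probe filter, probe summary, slide and replicate blocks, samples in the fit and each array left out. Probe positions are in the build the headers name, mm7, and promoter positions in GRCm38.p6; the builds were not mixed. Deviations of same-numbered arrays from their group means correlated at 0.51, 0.19 and 0.10 between the Ifnar2-/- groups. There the numbers were taken to pair the arrays on that basis alone. Differently numbered arrays that shared slide 3 correlated at 0.22 (IFN-β 3 with PBS 2) and 0.12 (IFN-β 2 with PBS 3). The pair numbered 1 lay on slide 2, so pairing by number and a shared slide cannot be told apart. Same-numbered arrays correlated at 0.03, -0.12 and -0.12 between the wild-type groups. Between the PBS groups they correlated at 0.17, -0.12 and -0.07. In these groups the numbers were not taken to pair the arrays. Some genes that the naming rule picks are not reported here.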

Additional observations from a re-analysis of the deposited data

Results flagged for a closer look

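The response to IFN-β, taken as Ifnar2-/- minus wild type on the log2 scale, differed between the genotypes for 10 members in limma's test of the difference over all genes. The value was -2.14 for Hk3, -1.68 for Slc2a6, -1.52 for Pfkfb3, -1.35 for Pdk3, -1.32 for Hk2, -1.07 for Pfkp and -0.90 for Hk1, all higher after IFN-β in wild type. It was 2.44 for Eno2, 1.23 for Pfkfb2 and 0.83 for Pfkfb4, all lower after IFN-β in wild type. Slc2a6 (1.08 in Ifnar2-/- mice and 2.77 in wild-type mice) and Hk2 (0.93 in Ifnar2-/- mice and 2.25 in wild-type mice) were the pair with a called change in both genotypes.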

How the results depend on the processing

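In wild type 18 members were called, 10 with the slide as a fixed block and 15 to 20 with 1 array left out. In Ifnar2-/- 2 were called, 0 when only its own groups entered the fit, 0 within slide 3, 0 without the arrays of slide 3 (a setting chosen after seeing the data) and 0 to 3 with 1 array left out. The difference of responses was called for 10, for 6 with the slide as a fixed block and for 7 to 11 with 1 array left out. After PBS 0 were called, 1 with no scaling, 1 with normexp, 1 with only the groups compared, 2 with the mean of a gene's probes and 0 to 2 with 1 array left out. The cause of these changes was not tested. Calls over all genes in these settings are not given here, so the counts do not show whether members lost more calls than other genes. With a replicate block 19, 2, 9 and 0 members were called in the same order of comparisons. Over all genes 7203, 207, 3249 and 892 were called in the main fit, and 6989, 138, 3001 and 1073 with the replicate block. That block ended the call on the difference of responses of Pfkfb4 (adjusted p = 0.08), passed Aldoc in wild type (0.0259), and changed no other call of a member. No called member changed sign in any setting. The calls on Slc2a6, Hk2, Hk3, Pfkp, Pfkfb2, Pfkfb3, Pdk1, Pdk2, Pdk3 and Hif1a in wild type held in all 24 tested settings. Limits: 3 mice a group, bulk cells, and slide partly aligned with genotype and, in wild type, with treatment. The lower bounds of detection were brighter on slide 3 (-5.46 to -5.02, against -6.66 to -6.07 elsewhere), which bears on dim members such as Eno2.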

Other observations

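Gapdh, which the rule did not match, is read by probes filed under 2 other names that RefSeq accessions pair with it. Their log2 fold changes were 0.06 and 0.08 in Ifnar2-/- mice and 0.06 and -0.02 in wild-type mice, and neither probe was called in either genotype.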
